A study of Arabidopsis thaliana with 4 samples.

Results

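Numbered basic helix-loop-helix (bHLH) genes of Arabidopsis thaliana were compared between roots of the nai1-1 mutant, which lacks ER bodies, and roots of wild-type Col-0. Members were the single-gene probes whose symbol or RefSeq synonym is MYB, ATMYB or BHLH with a number. NAI1, AT4G37850, AT2G22750 and BHLH92 were set aside. The rule found 8 genes with 1 probe each, of 9253 genes on 9335 single-gene probes. The arrays held 22575 probes in all. All 8 members are bHLH genes. Of 22 numbered bHLH genes in the RefSeq gene table, 9 had a single-gene probe, and 1 of these, BHLH92, was set aside. Genes of the family without a number in that table were not members, so the results do not cover the whole family. Of 125 numbered MYB genes in the RefSeq gene table, 0 had a single-gene probe in the annotation used. The MYB family was therefore not analysed, and the 2 families could not be compared. That annotation lists no gene for 13200 of the 22575 probes. Whether numbered MYB genes lie on those probes is not known here.

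Plants of both genotypes were 20 days old, received no treatment and had shared a plate of MS medium and 1% sucrose, kept at 22 °C under constant illumination. RNA from roots of 3 plants was pooled for each genotype, and each of 4 two-colour Agilent arrays carried both genotypes. The mutant was labelled with Cy3 on arrays 1 and 4 and with Cy5 on arrays 2 and 3. Whether the arrays hold RNA from separate plants is not given, so p-values measure the spread between arrays, which may be technical. Only the ratio of the genotypes was available, so no level could be read, root markers could not check the tissue, and fewer cells of a type cannot be told apart from less RNA per cell. Each value is a log2 ratio, the mutant over Col-0. Its direction assumes that the deposited ratios are Cy5 over Cy3, the convention of the extraction software, and every sign would turn under the opposite one.

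The bHLH proteins bind DNA as dimers through a basic region and a helix-loop-helix, usually at E-box sequences. NAI1 belongs to this family. In Arabidopsis roots several bHLH proteins form the cascade that answers iron shortage. The group IVc proteins bHLH34, bHLH104, bHLH105 (ILR3) and bHLH115 act with the group IVb protein bHLH121 to switch on group Ib genes such as bHLH101, whose products partner FIT to activate iron uptake. These 6 genes are members, and they include the whole of group IVc. The other two, bHLH94 and bHLH96, are group Ia proteins, the group that also holds the stomatal regulators SPEECHLESS, MUTE and FAMA.

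None of the 8 genes passed the test for a difference between the genotypes. Their mean ratios ran from -0.29 for bHLH96 to 0.33 for bHLH101. Of the 8, 6 lay above 0, as did 5141 of the 9335 probes with 1 gene. By limma with a dye term and Benjamini-Hochberg adjustment over all probes, 0 of 8 reached an adjusted p under 0.05, where 0.496% of all probes did. The adjusted p-values of the 8 lay between 0.328 and 0.857. At an unadjusted p under 0.05 there was 1 member, bHLH96, against 12.9% of all probes. In the limma fit that left out probes holding an exact 0, which called 3.61% of probes, 0 of 8 passed as well, with adjusted p-values from 0.286 to 0.898. The plot of members by array shows that 5 of the 8 genes had arrays on either side of 0.

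**Figure D1:**
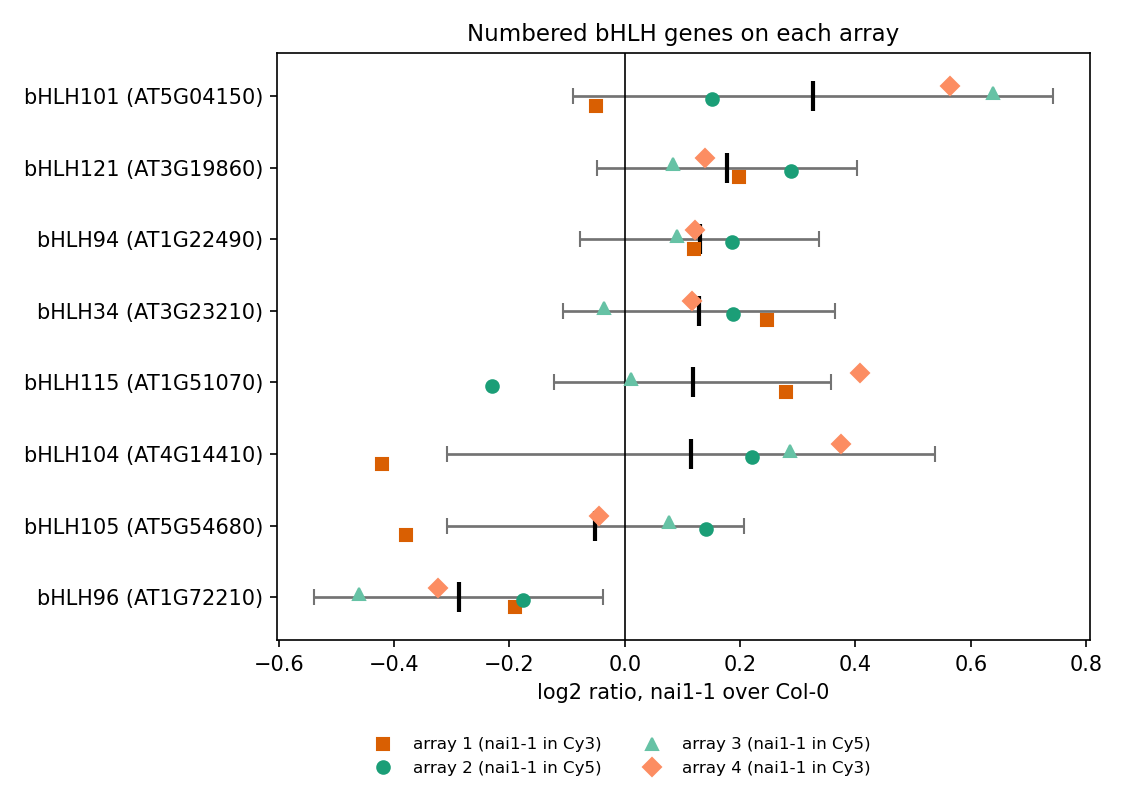
Log2 ratio of nai1-1 over Col-0 (horizontal axis) for the 8 numbered bHLH genes, 1 row per gene, with 1 coloured symbol per array, a black bar for the mean of 4 arrays and a grey line for the 95% confidence interval of the limma fit. The bars of bHLH94, bHLH121 and bHLH96 have all 4 symbols on one side of 0, and the intervals of 7 of the 8 genes include 0.

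The precision set what could be seen. Standard errors (SE) of the members lay between 0.08 and 0.16, and their 95% confidence intervals, each for a single gene, lay between -0.54 and 0.74. A 2-fold difference, 1 on this scale, was outside every interval. The interval of bHLH101 alone widened past it, to 1.03, when arrays were scaled to one spread or when array 2 was left out. At its own SE a member would have needed a difference of 1.82-fold (bHLH94) to 3.38-fold (bHLH104) to pass in the fit on all probes, and 1.42-fold to 1.66-fold in the fit without exact 0 values. An observed difference below those sizes would not have passed at that SE. They are not detection limits, since the estimate of a true difference varies with the 4 arrays.

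bHLH121, which acts with the group IVc proteins at the top of the iron cascade, had ratios of 0.20, 0.29, 0.08 and 0.14 on arrays 1 to 4. All 4 arrays were above Col-0. The mean was 0.18 ± 0.08 (SE, n = 4), or 1.13-fold, and did not pass (limma adjusted p = 0.476).

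The 4 group IVc genes had a median of 0.12, against 0.02 over all 9335 probes with 1 gene. The same sign on every array was found for 0 of the 4 and for 25.0% of those probes. bHLH34, an activator of group Ib genes, had ratios of 0.25, 0.19, -0.04 and 0.12 on arrays 1 to 4. Its mean was 0.13 ± 0.09 (limma adjusted p = 0.608), with array 3 the only one below Col-0. With 1 array left out, its genotype term, fitted beside the dye term, ranged from 0.073 (without array 2) to 0.18 (without array 3). In those fits the term is not the plain mean of the arrays left. The 95% interval of bHLH34 ran from -0.11 to 0.36.

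bHLH115, another activator of this group, had ratios of 0.28, -0.23, 0.01 and 0.41. It was high on both arrays with nai1-1 in Cy3 (mean 0.34) and lower on both with nai1-1 in Cy5 (mean -0.11). The dye term of bHLH115 was -0.23 ± 0.09 in Cy5 over Cy3, larger in size than its genotype term of 0.12 ± 0.09, and was the largest dye term among the 8 members. The genotype term ranged from 0.057 without array 3 to 0.18 without array 2. Neither term passed (limma adjusted p = 0.803 for dye, unadjusted p = 0.0584, and 0.635 adjusted for genotype).

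bHLH104 and bHLH105, which dimerise with each other, both had their lowest value on array 1. That array had the widest spread over all probes, a scaled median absolute deviation of 0.39. Arrays 2, 3 and 4 had 0.33, 0.22 and 0.19. bHLH104 was at -0.42, 0.22, 0.29 and 0.38 on arrays 1 to 4, so 1 array lay below Col-0 and the other three above it. The mean of bHLH104 was 0.11 ± 0.16 (limma adjusted p = 0.793), and without array 1 it was 0.31 (limma adjusted p = 0.638). Without array 4 it turned to -0.084 (limma adjusted p = 0.743). bHLH105, first found in a screen for resistance to an auxin conjugate, was at -0.38, 0.14, 0.08 and -0.04. The arrays with nai1-1 in Cy3 were below Col-0 and those with it in Cy5 above. The mean of bHLH105 was -0.05 ± 0.09 (limma adjusted p = 0.857), the smallest in size of the 8 members, beside a dye term of 0.16 ± 0.09. Without array 1 the genotype term of bHLH105, fitted beside the dye term, turned to 0.032. Cross-hybridisation between these related genes was not tested, since no probe sequence was used here.

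**Figure D2:**
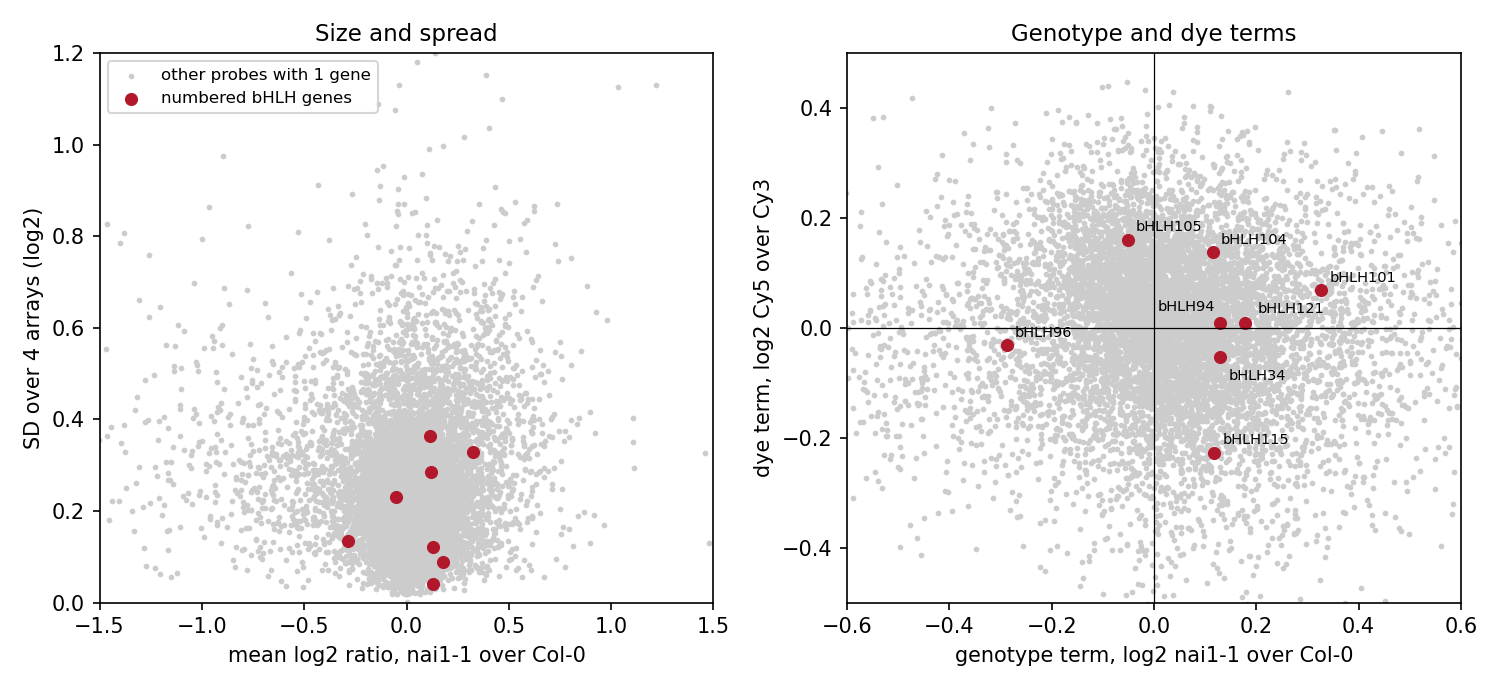
Left, the mean log2 ratio (horizontal axis) against the SD over 4 arrays (vertical axis, log2) for probes with 1 gene, and right, the genotype term (horizontal axis) against the dye term (vertical axis) of the limma fit on the log2 scale, with the 8 numbered bHLH genes in red and other probes in grey (70 and 525 probes lie outside the axes). The red points lie within the grey cloud in both panels, with bHLH94 near the bottom of the left one and bHLH115 lowest in the right one.

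bHLH101, the group Ib gene that the cascade induces when iron is short, had the highest mean of the 8. Its ratios were -0.05, 0.15, 0.64 and 0.56 on arrays 1 to 4. Arrays 3 and 4 stood well above arrays 1 and 2, with pair means of 0.60 and 0.05. The mean of bHLH101 over 4 arrays was 0.33 ± 0.15, or 1.25-fold, with an interval from -0.09 to 0.74 (limma adjusted p = 0.476). Among probes with 1 gene, 15.5% had a larger mean ratio in size and 24.3% a larger SD over arrays.

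The 2 group Ia genes kept to opposite sides of 0 on all arrays. bHLH96 (AT1G72210) was at -0.19, -0.18, -0.46 and -0.32. Its mean was -0.29 ± 0.09, or 0.819 of Col-0, with an interval from -0.54 to -0.04 before adjustment (limma unadjusted p = 0.0326, limma adjusted p = 0.328). bHLH94 (AT1G22490) was at 0.12, 0.19, 0.09 and 0.12, the narrowest spread of the 8 members. Its SD over arrays was 0.04, and 99.3% of probes with 1 gene had a larger one. The mean of bHLH94 was 0.13 ± 0.08 (limma adjusted p = 0.561), where the SE is widened by the spread that limma borrows from all probes.

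The ratio of bHLH94 exceeded that of bHLH96 by 0.31, 0.36, 0.55 and 0.45 on arrays 1 to 4. This pair was picked after its values were seen, so the difference is described and was not tested. With bHLH121, these genes make 3 of 8 members with the same sign on every array, against 25.0% of probes with 1 gene.

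As a set, the 8 members had medians of 0.04, 0.17, 0.08 and 0.13 on arrays 1 to 4, and the median of their means was 0.12. All probes with 1 gene had a median between -0.0046 and 0.024 on those arrays. The median size of the mean ratio, sign aside, was 0.13 for the members and 0.12 for all probes with 1 gene. The median SD over arrays was 0.18 for the members and 0.22 for those probes. Dye terms exceeded genotype terms in size for 3 of the 8 members, all in group IVc, and for 3965 of the 9335 probes with 1 gene.

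Other genes of the iron pathway were sparsely covered by the probes with a listed gene, and 13200 of the 22575 probes have none listed. Of 19 genes listed for iron uptake and storage, 1 was measured, and of a later list of 42 iron genes matched by locus, 4 were, including that one. Of these 4 genes, 0 passed the test in either direction. An unadjusted limma p under 0.05 was found for 2 of the 4 and for 12.9% of all probes. With so few measured, all 4 are named, F6'H1 after its values were seen. PYE (AT3G47640), a bHLH repressor that partners group IVc proteins and has no numbered synonym in the table, was at -0.09, -0.29, -0.49 and -0.60 on arrays 1 to 4. All 4 were below Col-0, and the mean of PYE was -0.37 ± 0.12 (limma adjusted p = 0.338). AT1G18910, from the later list, was at -0.45, -0.41, -0.42 and -0.01. Its mean was -0.32 ± 0.11 (limma adjusted p = 0.345), with array 4 close to 0.

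The other two iron genes of these lists are tied to coumarins, phenolics that help roots mobilise iron. F6'H1 (AT3G13610), an enzyme of coumarin synthesis, had a mean of 0.18 ± 0.11 and ranged from 0.01 to 0.51 (limma adjusted p = 0.583). BGLU42, a beta-glucosidase linked to coumarin release, had a mean of 0.18 ± 0.09 and ranged from 0.02 to 0.28 (limma adjusted p = 0.486). The plot of iron genes sets these beside bHLH121 and bHLH101, which had the highest means of all members. It leaves out the group IVc members, whose median was 0.12.

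**Figure D3:**
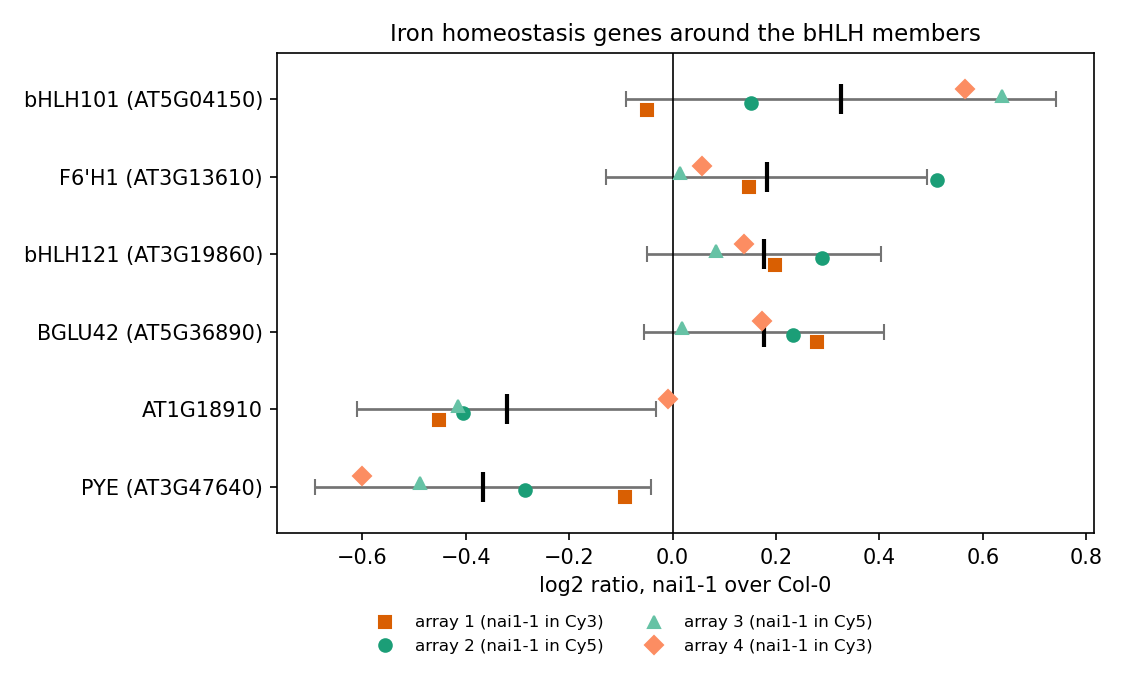
Log2 ratio of nai1-1 over Col-0 (horizontal axis) for PYE, AT1G18910, BGLU42 and F6'H1 with the members bHLH121 and bHLH101, 1 row per gene, with 1 coloured symbol per array, a black bar for the mean of 4 arrays and a grey line for the 95% confidence interval of the limma fit. PYE and AT1G18910 lie below 0 on all arrays, and the other four have means between 0.18 and 0.33. bHLH121 and bHLH101 have the highest means of the members, and the group IVc members are not shown.

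Among the genes set aside by the rule, BHLH92 shows the size of change the arrays could register for a bHLH gene. It fell by 3.10 ± 0.10 (limma adjusted p = 0.0181), with ratios from -3.31 to -2.91, while the 8 members stayed between -0.46 and 0.64 on every array. NAI1 itself had a mean of -0.70 ± 0.19, and its relatives AT4G37850 and AT2G22750 had means of -0.06 and -0.02 (limma adjusted p = 0.259, 0.802 and 0.939). The difference between these genes and the members was not tested.

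Proteins of the MYB and bHLH families also act together, with a WD40 protein, in complexes that set epidermal cell fate and flavonoid synthesis. A pair of genes with MYB in their names but no number had single-gene probes and are given for their names alone. MYBC1 (AT2G40970) was at 0.52, 0.32, -0.34 and -0.47, so arrays 1 and 2 were above and arrays 3 and 4 below Col-0, and its mean was 0.01 ± 0.22 (limma adjusted p = 0.996). AT5G47390, also called KUA1 or MYBH, had a mean of -0.15 ± 0.10 and was below Col-0 on arrays 2, 3 and 4 (limma adjusted p = 0.607). TRY, a single-repeat MYB that competes in the epidermal complex, had a mean of 0.15 ± 0.13 (limma adjusted p = 0.666).

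Of 14 genes listed for flavonoid synthesis 5 were measured, and 0 passed by limma at either an adjusted or an unadjusted p under 0.05. Which of the 5 depend on complexes of MYB and bHLH proteins was not tested. The median of the 5 was 0.09, the mean of DFR, which was at -0.42, -0.61, 0.83 and 0.54 on arrays 1 to 4. BAN had a mean of -0.15. The 2 with the smallest p were CHIL, a chalcone isomerase-like gene, at 0.19 ± 0.09 and UGT78D1, a flavonol glycosyltransferase gene, at 0.24 ± 0.13 (limma adjusted p = 0.464 and 0.511). Over all lists of downstream and partner genes 16 genes were measured and 0 passed in the fit on all probes. In that fit EXPA7 and BCAT4 had an unadjusted limma p under 0.05, as did 12.9% of all probes. BCAT4, of glucosinolate synthesis, was at 0.24 ± 0.08 (limma adjusted p = 0.355). Without exact 0 values 1 gene passed, the root hair expansin gene EXPA7, at 0.59 ± 0.11 in that fit (limma adjusted p = 0.0357). The fit without exact 0 values called 3.61% of its probes. The numbered bHLH genes of root hair growth were not analysed here.

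**Figure D4:**
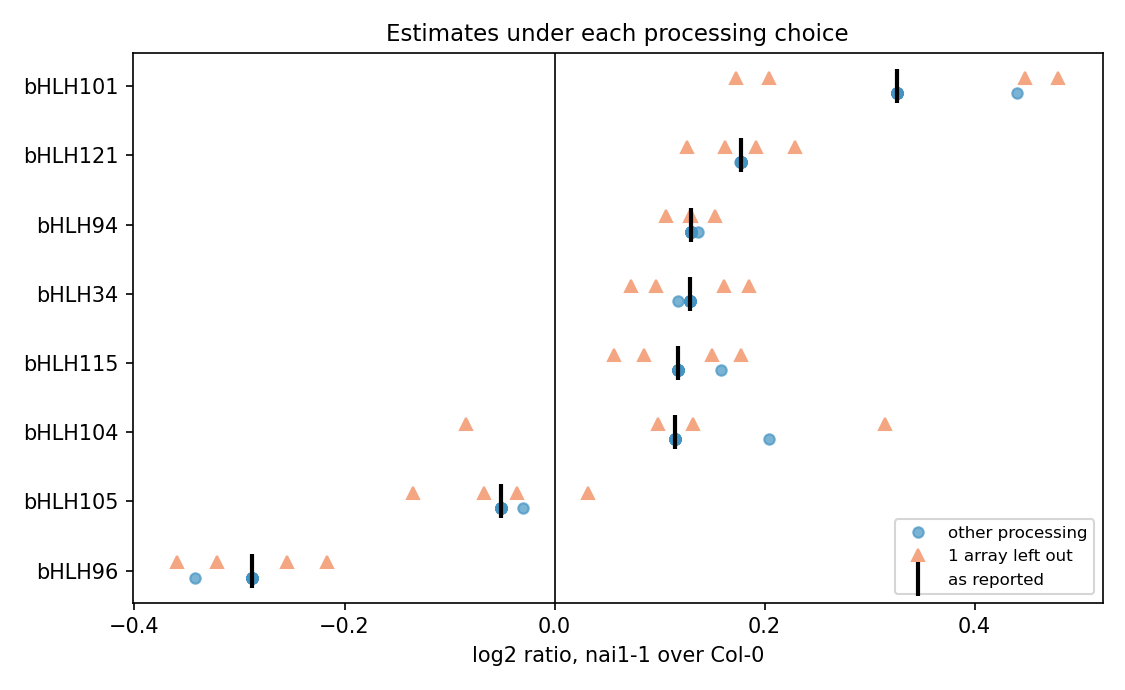
Estimated log2 ratio of nai1-1 over Col-0 (horizontal axis) of each of the 8 numbered bHLH genes as reported (black bar), with 1 array left out (triangles) and under the other processing choices (blue points, many on top of each other). The triangles of bHLH104 and bHLH105 cross 0, and those of bHLH101 span 0.17 to 0.48.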

How the data were processed

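The authors deposited a log10 ratio for each probe on each array, made with Agilent software (Feature Extraction 7.1, per the submitters' processing notes) at background and dye settings not known here. Intensities and flags were not analysed here, so dim or saturated spots stayed in, and the number of arrays limits the precision. Ratios were converted to log2 and arrays 1 and 4 turned, with no other normalization. Turned arrays correlated across probes with 1 gene at Pearson r from 0.33 to 0.75. Across all probes r was 0.44 and 0.66 for arrays of one dye orientation and between -0.13 and 0.14 for opposite orientations.

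Probes were named through the platform annotation and, by Entrez identifier, the RefSeq table for TAIR10.1, which matched 9317 of 9335 single-gene probes.

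The fit used limma 3.58.1 in R 4.3.3 (lmFit, eBayes) on all 22575 probes, with genotype and dye terms, two-sided moderated tests and Benjamini-Hochberg adjustment at 0.05. The script was tested on simulated data with added differences larger than the mean ratio of any member. That test does not show what could be detected at the members' sizes. An exact 0 occurred in 1016 probes and in 0 members. Members, lists and tests were chosen with earlier results of these data known, and the list of 42 iron loci was added last. The rule for named genes (calls, smallest p, extreme means, dye terms and SDs, role lists) took in all 8 members and allowed the 2 genes with the smallest p in each downstream list.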

Additional observations from a re-analysis of the deposited data

How the results depend on the processing

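Under all 13 alternatives that refit each member, and with a 1.2-fold minimum, 0 of the 8 members passed (limma adjusted p from 0.21 to 1). Leaving out 1 array, scaling arrays to one spread, or averaging arrays 1 and 2 and arrays 3 and 4 called 0 probes of the whole table, so those settings say nothing about the members' calls. Averaging with exact 0 values left out called 117 lower and 4 higher probes, again with 0 members. The count of 109 lower and 3 higher probes became 645 and 133 without exact 0 values, 333 and 61 without a dye term, 456 and 75 with a robust prior variance, 421 and 149 with single-gene probes only, and 43 and 1 with a 1.2-fold minimum (the cause was not tested). The sign turned in 2 of 104 member estimates, for bHLH105 without array 1 and bHLH104 without array 4. Only leaving out 1 array or scaling arrays to one spread moved an estimate at the precision printed here. The other alternatives repeated the main estimate, so their signs could not turn and the 104 overstate the stability. With 1 array left out, the genotype term of bHLH105 ranged from -0.13 to 0.032 and that of bHLH104 from -0.084 to 0.31. The median of the 8 was taken over plain means of the arrays, with no dye term. It was 0.08 to 0.15 with 1 array left out and 0.15 with arrays scaled. Over the 5 members named by their current symbol it was 0.13. The MYB median and the difference between families gave no value, having no MYB member. The genotypes are already paired within each array's ratio, so no further block was fitted. In 9 values tested for 1 array apart by Dixon's test, 0 were found.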
